A study of Mus musculus and Sus scrofa with 18 samples.

Results

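The striatum of untreated HD mice was compared with that of WT mice in 6 of the 18 RNA libraries of the series, 3 animals per group, selected by their genotype and treatment labels. HD 140Q-KI mice are heterozygous knock-in mice in which an Htt allele carries exon 1 of human HTT with an expanded CAG tract. Both groups were injected bilaterally into the striatum. By the paper, the HD mice taken for RNA sequencing were treated at 6 months of age, and mice were killed 6 weeks after injection. WT mice received AAV9 carrying the control gRNA and a GFP marker. Untreated HD mice received the same control gRNA vector, described in the paper as non-targeting, together with AAV9-CasRx. CasRx is an RNA-targeting Cas13d nuclease, here driven by the ubiquitous CAG promoter. CasRx was thus present in the untreated HD mice and absent from WT mice, and a difference between the groups due to the knock-in allele cannot be told apart from one due to the CasRx vector. The remaining mouse group, HD mice treated with CasRx and HTT gRNAs, entered the fit as a source of replicate spread.

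In the striatum, most neurons are GABAergic projection neurons. Direct pathway neurons carry the D1 dopamine receptor and indirect pathway neurons carry the D2 dopamine receptor and the adenosine receptor encoded by Adora2a. Both signal through cAMP and DARPP-32, and they are the neurons most affected in Huntington's disease. Microglia and astrocytes answer injury and infection with interferon-stimulated genes, antigen presentation and complement, and lymphocytes are few in the healthy brain.

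Each library held between 27184356 and 31112342 counts in WT and between 28628414 and 29311041 in untreated mice. Counts came from the 3′ ends of mRNA. Values are given as CPM, counts scaled to a common library size, after scaling of the libraries by edgeR's TMM method, and levels are compared between animals, not between genes. After removal of low-count genes, 19463 were tested. Genes are described as higher or lower, risen or fallen, where the quasi-likelihood test of edgeR gave a Benjamini-Hochberg adjusted p under 0.05 over all 19463 genes. SE is the standard error of a log2 fold change. The median standard deviation of log2 CPM within a group was 0.22 in WT and 0.16 in untreated mice.

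Before the comparison, 4 differences between libraries were seen that the genotype labels do not describe. Counts of Y-linked genes summed to between 3435 and 5005 in the 3 WT mice and to 4683 in untreated replicate 1, and were 0 in untreated replicates 2 and 3. The labels used here do not give sex. Animals without Y-linked counts stood only in the untreated group, so a difference due to genotype cannot be fully told apart from one due to sex. A list of 22 choroid plexus markers stood highest in WT replicates 2 and 3, at a median log2 deviation of 2.10 and 0.87 from the WT mean, and lower in WT replicate 1 (−2.93) and the untreated mice (−1.72, −2.26 and −2.81). Cortical excitatory neuron markers, 14 genes, stood at 1.12, −0.18 and −0.90 in WT replicates 1 to 3 and at 1.53, 1.15 and 1.34 in untreated replicates 1 to 3. The alpha globin gene Hba-a1, a red blood cell transcript with a near-identical copy in Hba-a2, was counted at 57.8, 33.9 and 56.7 CPM in WT and 0.912, 22.2 and 12.9 CPM in untreated mice. Neutrophil markers were at or near 0, with 1 of 12 listed genes passing the filter. Their part in the results was not tested beyond the values given beside them.

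Against WT mice, 892 genes were higher in untreated mice, or 4.58% of those tested, and 1188 were lower, or 6.10%. The definition of a DEG differs between the results and the methods of the study, the methods being stricter in P. A DEG here is a gene that changed at least 2-fold with P, before adjustment, under 0.05. By this rule 1085 genes were higher (5.57%) and 503 lower (2.58%), together 8.16%. At a P under 0.01, as in the methods, there were 606 and 340. Both an adjusted p under 0.05 and a 2-fold change were reached by 442 higher genes (2.27%) and 291 lower genes (1.5%). The rises were larger and the falls more even. Genes that rose had a median log2 fold change of 0.99, and 250 of them rose at least 4-fold. Genes that fell had a median of −0.62, and 52 fell at least 4-fold. The untreated animals did not overlap WT in 888 of the higher and 1185 of the lower genes, against 15.0% and 15.1% of all tested genes.

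The counts depended on single animals. With 1 of the 6 animals left out, between 213 (without WT replicate 2) and 1184 genes (without WT replicate 1) were higher and between 691 (without untreated replicate 3) and 1400 (without WT replicate 1) were lower. Without WT replicate 3 there were 550 higher, without untreated replicate 2 there were 439 higher and 707 lower, and without untreated replicate 3 there were 364 higher. Without WT replicate 2 there were 699 lower. When both untreated animals without Y-linked counts were left out, only untreated replicate 1 remained against the 3 WT mice. Gene calls are not given for that setting, which was chosen after the data were seen. Its fit still held the treated mice, which also had no Y-linked counts. Scaling by library size alone gave 1147 higher and 922 lower genes. With the Y-linked share as a covariate 90 genes were higher and 367 lower.

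**Figure D1:**
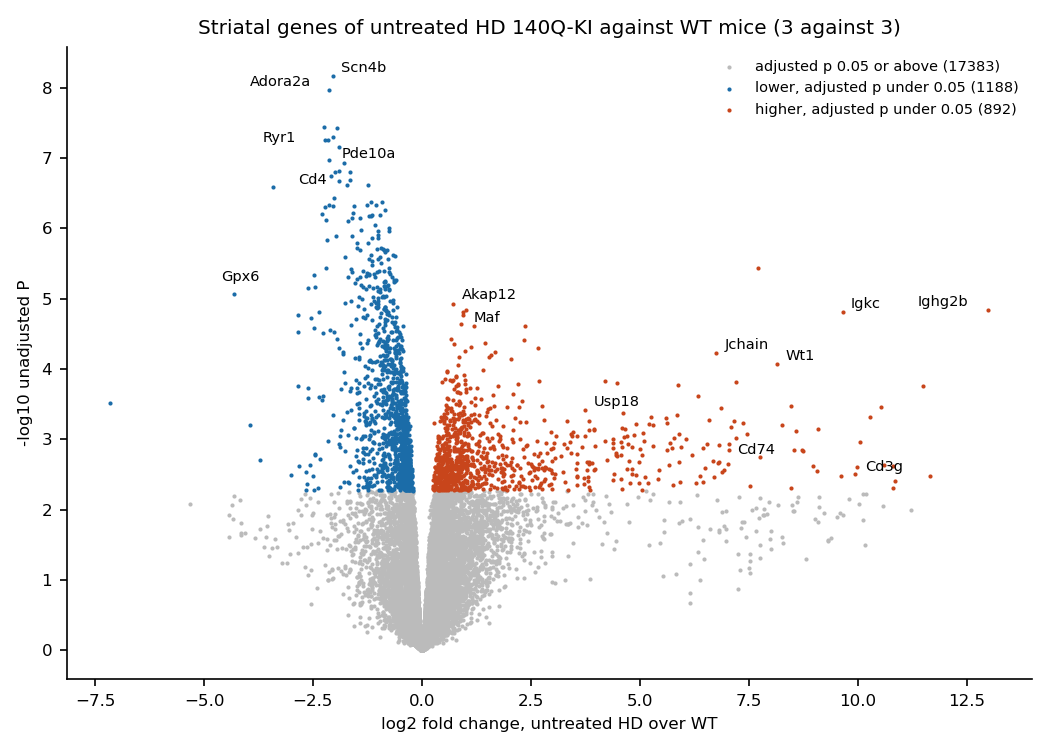
Each point is 1 of the 19463 tested genes, with the log2 fold change of untreated over WT mice on the x axis and −log10 of the unadjusted P on the y axis. The 1188 genes that fell (blue) held the smallest P values at moderate fold changes, whereas the 892 that rose (red) reached larger fold changes.

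Htt, the knocked-in gene, was counted at 189, 191 and 182 CPM in the 3 WT mice and 145, 140.4 and 149.6 CPM in the 3 untreated mice. All 3 untreated values lay below all WT values (log2 fold change −0.37, SE 0.06, adjusted p = 0.00656). A 3′ count does not separate the knock-in from the WT allele. Leaving out both untreated animals without Y-linked counts left a log2 fold change of −0.37, with untreated replicate 1 as the only untreated animal.

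Every one of the 30 shared markers of striatal projection neurons was lower in untreated mice, by a median log2 fold change of −1.41, about 2.66-fold. Over all 19463 genes the median was 0.02, and 6.10% were lower. The 3 untreated animals were close together, with list medians of −1.41, −1.27 and −1.49 relative to the WT mean, while the WT animals ranged from −0.21 to 0.14. In 29 of the 30 genes no untreated animal reached the lowest WT animal, against 15.1% of all tested genes. The exception was Strip2, named after its values were seen. Of the 30, 21 were also DEGs.

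Scn4b, the beta4 subunit of voltage-gated sodium channels, was counted at 1082, 1266 and 1267 CPM in WT and 297, 327 and 255 CPM in untreated mice, a log2 fold change of −2.04 (SE 0.11, adjusted p = 0.000107). Pde10a, the phosphodiesterase that breaks down cAMP and cGMP in projection neurons, was counted at 1272, 1543 and 1653 CPM in WT and 356, 419.7 and 307 CPM in untreated mice (log2 fold change −2.04, SE 0.13, adjusted p = 0.000154). In both genes the highest untreated animal stayed far below the lowest WT animal. Ryr1, a calcium release channel of the endoplasmic reticulum, was counted at 115, 157 and 126 CPM in WT and 23.2, 32.7 and 29.3 CPM in untreated mice (log2 fold change −2.22, SE 0.15, adjusted p = 0.000154). Ppp1r1b, which encodes DARPP-32, was counted at 1741, 2458 and 2089 CPM in WT and 511, 606 and 568 CPM in untreated mice (log2 fold change −1.90, SE 0.13, adjusted p = 0.000172). The smallest of the 30 falls was −0.69 on the log2 scale. In bulk tissue, fewer cells of a type and less RNA per cell cannot be told apart.

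The falls of the projection neuron list held in most settings. With 1 animal left out, between 27 and 30 of the 30 genes were lower. With untreated replicate 1, which holds Y-linked counts, as the only untreated animal, the median was −1.42. With the choroid plexus level as a covariate 25 of 30 were lower, and with the cortical marker level as a covariate 10 of 30 were lower with a median of −1.04; these 3 settings were chosen after the data were seen. WT replicate 1, whose cortical marker level was near that of the untreated mice, had a projection neuron median of −0.21, the lowest of the WT animals. The part of cortical content in the falls was not tested.

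**Figure D2:**
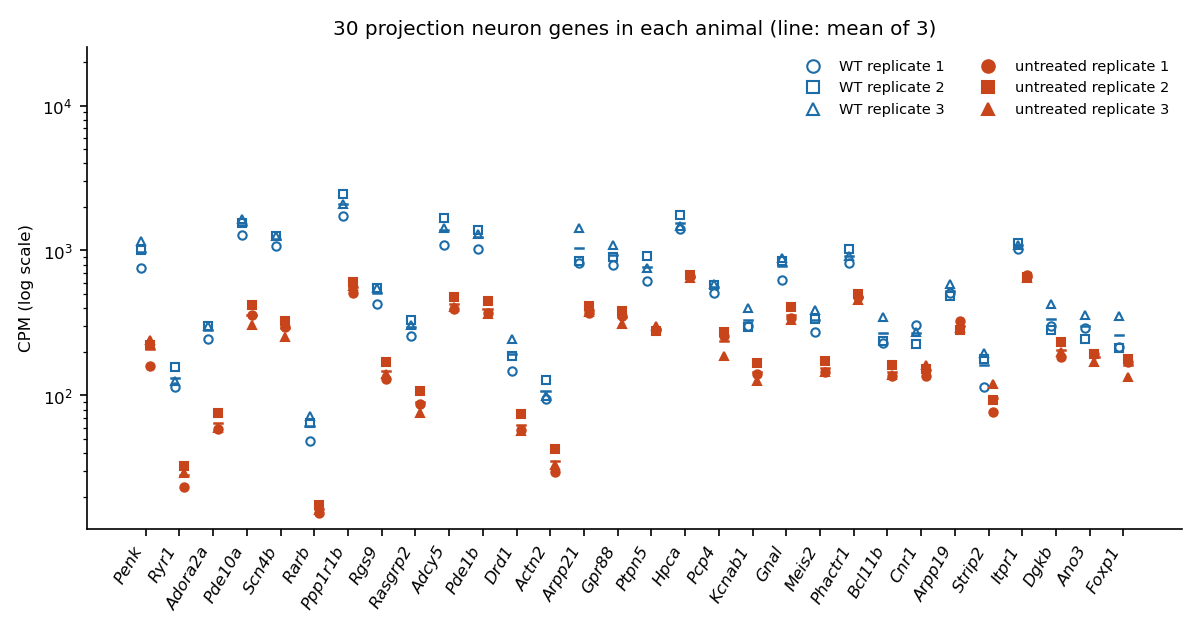
CPM on a log axis of the 30 shared projection neuron genes in the 3 WT mice (open blue) and the 3 untreated mice (filled red), with the mean of each group as a line, ordered by log2 fold change. The groups did not overlap in 29 of the 30 genes.

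Markers of both output pathways fell. In these lists Drd1, Penk and Adora2a are also members of the shared projection neuron list. Among 12 direct pathway genes 7 were lower and 0 higher, with a median log2 fold change of −0.91, and among 12 indirect pathway genes 5 were lower and 0 higher, with a median of −0.61. Drd1, the D1 dopamine receptor, was counted at 149, 189 and 245 CPM in WT and 57.5, 74.2 and 56.9 CPM in untreated mice (log2 fold change −1.63, SE 0.17, adjusted p = 0.000984). Tac1, the precursor of substance P, was counted at 147, 181 and 210.4 CPM in WT and 89.6, 101 and 87.7 CPM in untreated mice (log2 fold change −0.95, adjusted p = 0.00214). Chrm4, the M4 muscarinic receptor of direct pathway neurons, had a log2 fold change of −1.15 (adjusted p = 0.000828), and Reln, the secreted protein reelin, one of −0.87 (adjusted p = 0.00291).

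In the indirect pathway list, Drd2, the D2 dopamine receptor, was counted at 178, 269.9 and 219 CPM in WT and 56.6, 66.6 and 56.4 CPM in untreated mice (log2 fold change −1.89, SE 0.14, adjusted p = 0.000262). Penk, the enkephalin precursor, was counted at 752, 1012 and 1157 CPM in WT and 159, 224 and 243 CPM in untreated mice, a log2 fold change of −2.22 (SE 0.19, adjusted p = 0.000343). Gpr6, a receptor coupled to cAMP, had a log2 fold change of −2.13 (adjusted p = 0.000343). Adora2a, the adenosine receptor of these neurons, fell by 2.13 on the log2 scale (adjusted p = 0.000107). A test of the difference between the pathways was not made, since the lists differ in how strictly their members mark the pathway. Leaving out 1 animal gave 7 or 8 lower direct pathway genes and 5 or 6 lower indirect pathway genes. With the cortical marker level as a covariate 0 of 12 direct pathway genes were lower, at a median of −0.39, and 4 of 12 indirect pathway genes, at −0.63. Negative log2 fold changes stood in 10 of 12 direct and 11 of 12 indirect genes with untreated replicate 1 as the only untreated animal.

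Of 18 striatal interneuron genes 6 were lower and 0 higher, with a median of −0.29, and 7 of the 18 had positive log2 fold changes. Chat, which makes acetylcholine, was counted at 13.9, 22.9 and 18.7 CPM in WT and 6.31, 8.33 and 6.25 CPM in untreated mice (log2 fold change −1.41, SE 0.20, adjusted p = 0.00364). Slc18a3, which loads acetylcholine into vesicles, was counted at 7.59, 11.6 and 10.2 CPM in WT and 4.14, 3.66 and 3.81 CPM in untreated mice (log2 fold change −1.34, adjusted p = 0.00214). Lhx8 (−1.34, adjusted p = 0.00832) and Nkx2-1 (−1.72, adjusted p = 0.0138), transcription factors of forebrain interneuron development, were also lower on the log2 scale. The largest positive values, named after they were seen, were those of the neuropeptide genes Vip (1.96, adjusted p = 0.0572) and Cck (1.10, adjusted p = 0.0559), which were DEGs but did not pass the adjusted test. The replicate block and DESeq2 each called 2 of the 18 higher, and 3 were higher without WT replicate 1. With untreated replicate 1 as the only untreated animal the median was −0.16, and with the cortical marker covariate 0 of the 18 passed, at −0.25.

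Cortical excitatory neuron markers stood higher in untreated mice, with 4 of 14 called higher, 0 lower and a median of 1.05. Neurod2, a transcription factor of these neurons, was counted at 36.7, 13.7 and 8.51 CPM in WT and 68.5, 53.4 and 66.9 CPM in untreated mice (log2 fold change 1.68, SE 0.42, adjusted p = 0.036). Slc17a7, the vesicular glutamate transporter of cortical neurons, was counted at 684, 301 and 165 CPM in WT and 893, 784 and 963 CPM in untreated mice and did not pass (adjusted p = 0.0848). In both genes WT replicate 1 lay closest to the untreated animals. Without WT replicate 1, 9 of the 14 were higher. Bhlhe22 (1.91, adjusted p = 0.0317), Cux2 (0.97, adjusted p = 0.0321) and Rspo1 (0.82, adjusted p = 0.0308) were the other 3 called, given as log2 fold changes. With untreated replicate 1 or 3 left out 0 of the 14 were called, with WT replicate 2 or 3 left out 1 was, and with untreated replicate 2 left out 2 were.

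Pan-neuronal markers did not share the fall of the projection neuron list, with 2 of 16 higher, 0 lower and a median of 0.12. Rbfox3, which encodes NeuN, was counted at 255, 261 and 217 CPM in WT and 256, 229.8 and 223 CPM in untreated mice (log2 fold change −0.05, SE 0.09, adjusted p = 0.777). Elavl4, a neuronal RNA-binding protein, was higher, at 32.1, 18.1 and 36.8 CPM in WT and 76.5, 64.7 and 57.8 CPM in untreated mice (log2 fold change 1.19, adjusted p = 0.0155). Stmn2, a regulator of microtubules in growing axons, was also higher (log2 fold change 0.89, adjusted p = 0.0249). These rises stood beside the cortical marker rise given above, and its part was not tested.

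**Figure D3:**
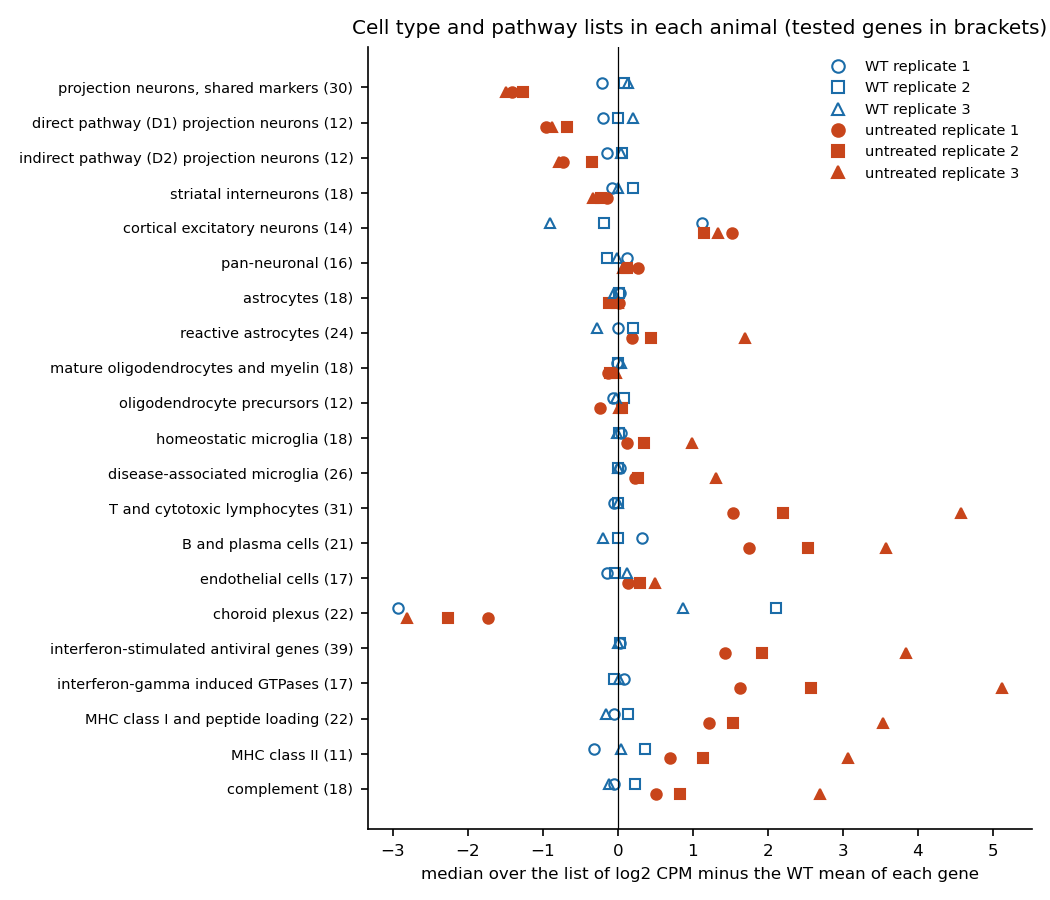
Median over each list of log2 CPM minus the WT mean of each gene, for the 3 WT mice (open blue) and the 3 untreated mice (filled red). Projection neuron medians of untreated animals lay between −1.49 and −1.27, whereas among the untreated animals interferon and MHC medians were lowest in replicate 1 and highest in replicate 3, at 5.12 in the GTPase list.

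Many transcripts of signalling proteins downstream of dopamine and adenosine receptors were lower. Of 27 genes of dopamine, adenosine and cAMP signalling 19 were lower and 2 higher, with a median of −1.13. Some of these genes also stand in the projection neuron list. Rgs9, which speeds the shut-off of G protein signalling, was counted at 424, 555 and 549 CPM in WT and 129.5, 170.1 and 141 CPM in untreated mice (log2 fold change −1.79, SE 0.13, adjusted p = 0.000226). The 2 that rose were Gnas and Prkar1b, the stimulatory G protein and a regulatory subunit of protein kinase A, named after their values were seen. Of 18 phosphodiesterases 7 were lower and 3 higher. Besides Pde10a, Pde1b was counted at 1022, 1389 and 1294 CPM in WT and 373, 446 and 364 CPM in untreated mice (log2 fold change −1.65, adjusted p = 0.000262). Pde7b (−1.50, adjusted p = 0.00111) and Pde2a (−0.72, adjusted p = 0.00627) were lower on the log2 scale. Pde1a, Pde3b and Pde5a rose, named after their values were seen. Between 17 and 19 of the 27 signalling genes and between 5 and 7 of the 18 phosphodiesterases were lower with 1 animal left out. With the cortical marker covariate 5 of the 27 were lower, at a median of −0.74, and 2 of the 18.

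Ion channels moved in both directions. Of 31 sodium and calcium channel and calcium release genes 12 were lower and 3 higher (median −0.27), and of 32 potassium channel genes 9 were lower and 3 higher (median −0.14). Cacnb2, an auxiliary calcium channel subunit, was counted at 89.6, 104 and 101 CPM in WT and 42.4, 50.5 and 41.3 CPM in untreated mice (log2 fold change −1.13, SE 0.10, adjusted p = 0.000371). Ryr3, a further calcium release channel, had a log2 fold change of −1.24 (adjusted p = 0.000599). Kcnh4, a voltage-gated potassium channel, was counted at 59.5, 89.6 and 65.7 CPM in WT and 26.5, 26.5 and 23.8 CPM in untreated mice (log2 fold change −1.48, adjusted p = 0.000599). The potassium channel subunits Kcnab1 (−1.21, adjusted p = 0.00121) and Kcnip2 (−1.01, adjusted p = 0.00168) and the background channel Kcnk2 (−0.65, adjusted p = 0.00156) fell on the same scale. Genes that rose, named after their values were seen, included Cacna1g and Cacna2d1 in the first list and Kcnj6 and Kcnk3 in the second. With 1 animal left out, between 11 and 13 and between 8 and 10 genes were lower in the 2 lists. With the cortical marker covariate 2 of 31 and 0 of 32 were lower.

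Synaptic genes also moved both ways. Of 30 postsynaptic density and plasticity genes 11 were lower and 2 higher (median −0.28), whereas of 32 vesicle release genes 3 were lower and 4 higher (median 0.18). Rasgrp2, an activator of Rap signalling, was counted at 257, 329.6 and 307 CPM in WT and 87.6, 107 and 75.6 CPM in untreated mice (log2 fold change −1.73, SE 0.13, adjusted p = 0.000263). Ptpn5, the striatum-enriched phosphatase STEP, was counted at 616, 919 and 759 CPM in WT and 282, 281 and 301 CPM in untreated mice (log2 fold change −1.41, adjusted p = 0.000478). Shank3, a postsynaptic scaffold, had a log2 fold change of −0.84 (adjusted p = 0.00112), and its partner Baiap2 one of −1.08 (adjusted p = 0.00106). Among release genes, Sv2c, the vesicle protein enriched in the basal ganglia, fell (−1.01, adjusted p = 0.0013) and Slc32a1, the vesicular GABA transporter, fell (−0.77, adjusted p = 0.0108). Unc13b, a vesicle priming factor, rose by 0.97 on the log2 scale (adjusted p = 0.0287). Dlgap1 and Shank1 were the postsynaptic genes that rose, and Syn1, Syp and Sv2b the other 3 release genes that rose, all named after their values were seen. Without WT replicate 1, 12 of the 32 release genes were higher, and without each of the other animals at most 1 was. With the cortical marker covariate 1 of the 30 postsynaptic genes was lower.

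Of 36 glutamate and GABA receptor genes 9 were lower and 4 higher, with a median of 0.00. Grm4, the mGlu4 receptor, was counted at 63.2, 87.4 and 97.0 CPM in WT and 36.2, 41.8 and 34.5 CPM in untreated mice (log2 fold change −1.14, SE 0.15, adjusted p = 0.00224). Gabrd, the delta subunit of extrasynaptic GABA-A receptors, had a log2 fold change of −0.91 (adjusted p = 0.00536), and Grm3 one of −0.54 (adjusted p = 0.0163). Grm2, the mGlu2 receptor, was counted at 11.9, 6.64 and 2.96 CPM in WT and 23.8, 24.2 and 24.9 CPM in untreated mice and rose (log2 fold change 1.76, adjusted p = 0.022). Its WT values followed the order of the cortical markers, highest in replicate 1 and lowest in replicate 3. Gabra3 and Gabbr2 also rose, named after their values were seen. Of the 36, 4 were lower without untreated replicate 1 and 3 without untreated replicate 3, while 11 were higher without WT replicate 1.

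Of 26 neuropeptide and opioid receptor genes 6 were lower and 3 higher, with a median of 0.04. Pdyn, the dynorphin precursor of direct pathway neurons, was counted at 84.0, 119 and 135 CPM in WT and 42.2, 47.3 and 56.2 CPM in untreated mice (log2 fold change −1.21, SE 0.18, adjusted p = 0.00513). Tacr1, the substance P receptor, was counted at 19.4, 27.9 and 26.8 CPM in WT and 9.02, 11.8 and 10.4 CPM in untreated mice (log2 fold change −1.25, adjusted p = 0.00343). Penk and Tac1, given above, were the other 2 with the smallest P. The genes that rose, named after their values were seen, were Adcyap1, Crh and Sstr1, and without untreated replicate 2 or 3 at most 1 was called higher.

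Transcription factors that set striatal identity fell more often than they rose, 11 lower against 2 higher among 25, with a median of −0.69. Rarb, a retinoic acid receptor of projection neurons, was counted at 48.2, 64.3 and 71.8 CPM in WT and 15.4, 17.6 and 16.2 CPM in untreated mice (log2 fold change −1.91, SE 0.14, adjusted p = 0.000239). Rxrg, its dimer partner among the retinoid X receptors, was counted at 104, 141 and 122 CPM in WT and 33.7, 41.6 and 42.1 CPM in untreated mice (log2 fold change −1.64, adjusted p = 0.000239). Dlx6 (−1.27, adjusted p = 0.00105) and Meis2 (−1.11, adjusted p = 0.00123), homeobox factors of the ganglionic eminence lineage, were lower on the log2 scale. Ikzf2 and Mef2c were the 2 that rose, named after their values were seen. Between 8 and 12 were lower with 1 animal left out, and 2 with the cortical marker covariate.

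Of 22 activity-induced genes 6 were lower and 1 higher, with a median of −0.32. Egr3, an immediate early transcription factor, was counted at 257, 228 and 263 CPM in WT and 169.7, 125 and 132 CPM in untreated mice (log2 fold change −0.81, SE 0.12, adjusted p = 0.00497). Egr2 was counted at 17.4, 22.9 and 21.8 CPM in WT and 6.45, 6.72 and 9.75 CPM in untreated mice (log2 fold change −1.44, adjusted p = 0.00932). Npas4 (−0.67, adjusted p = 0.0149) and Nr4a1 (−0.74, adjusted p = 0.0146) were lower on the log2 scale. Btg2 was the gene that rose, named after its value was seen. Among trophic genes, 5 of 16 neurotrophin and receptor genes were lower and 2 higher. Gdnf, a glial trophic factor, fell by 1.35 (adjusted p = 0.0317) on the log2 scale. Nrn1, a neurite outgrowth protein, rose, at 63.5, 21.0 and 30.5 CPM in WT and 131, 107 and 133 CPM in untreated mice (adjusted p = 0.0155), with WT replicate 1 highest among WT as in the cortical markers. With 1 animal left out, between 4 and 7 activity-induced and between 1 and 4 neurotrophin genes were lower.

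Interferon-stimulated genes rose together. Of 39 interferon-stimulated antiviral genes 30 were higher and 0 lower, with a median log2 fold change of 2.83, against 4.58% of all tested genes higher, and 37 were DEGs. In 38 of the 39 every untreated animal stood above every WT animal, against 15.0% of all tested genes. The size of the rise differed between untreated animals, with list medians of 1.42, 1.92 and 3.85 in replicates 1, 2 and 3, while the WT animals lay near 0. The adjusted calls rested on the full set of libraries: 1 of the 39 was called without WT replicate 2, 3 without WT replicate 3, 13 without WT replicate 1, 23 without untreated replicate 2 and 10 without untreated replicate 3. With untreated replicate 1 as the only untreated animal the median was 1.39. With the cortical or the choroid plexus marker level as a covariate 0 of 39 passed, at medians of 2.92 and 3.11.

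Usp18, which restrains interferon receptor signalling, was counted at 0.944, 0.954 and 0.864 CPM in WT and 6.03, 7.66 and 23.6 CPM in untreated mice (log2 fold change 3.75, SE 0.70, adjusted p = 0.0131). Ifih1, the RNA sensor MDA5, was counted at 3.78, 3.63 and 3.26 CPM in WT and 9.998, 11.4 and 25.3 CPM in untreated mice (log2 fold change 2.13, adjusted p = 0.015). Rtp4 was counted at 1.47, 1.36 and 1.16 CPM in WT and 5.51, 8.26 and 30.5 CPM in untreated mice (log2 fold change 3.47, adjusted p = 0.019). Each untreated animal was above each WT animal in all 3 genes, and replicate 3 was the highest. Mx1, an antiviral GTPase, was counted at 0.113, 0.0734 and 0.199 CPM in WT, or at most 6 counts in a library, and 2.21, 2.55 and 14.8 CPM in untreated mice (adjusted p = 0.015).

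GTPases induced by interferon-gamma, which attack vacuoles of intracellular pathogens, rose in 11 of 17, with 0 lower and a median of 3.82. All 17 were higher DEGs and did not overlap between the groups, against 5.57% and 15.0% of all tested genes. The list medians of the untreated animals were 1.62, 2.57 and 5.12. With WT replicate 2 or 3 left out 0 of the 17 were called, with WT replicate 1 or untreated replicate 3 left out 2 were, without untreated replicate 2 it was 6 and without untreated replicate 1 all 17. Igtp was counted at 2.91, 3.67 and 2.69 CPM in WT and 17.5, 33.6 and 169.8 CPM in untreated mice (log2 fold change 4.57, SE 1.06, adjusted p = 0.028). Gbp6 was counted at 1.02, 1.43 and 1.46 CPM in WT and 11.7, 24.9 and 108 CPM in untreated mice (log2 fold change 5.20, adjusted p = 0.0163). Iigp1 (5.63, adjusted p = 0.0252) and Gbp8 (6.19, adjusted p = 0.0278) rose on the same scale. These GTPases have close paralogs between which reads may be divided.

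Promoters of genes induced by interferon often hold an interferon-stimulated response element, in which a GAAA core is repeated after a short spacer. The motif searched was GAAA, then 2 bases of any kind, then GAAA again. It was looked for on both strands of the RefSeq promoters in build GRCm38.p6, from 250 bases before to 50 bases after each start, and matches may overlap. It was found for 1079 of 27025 genes with a promoter, or 3.99%. Among the 610 higher genes with a promoter, 63 held it (10.3%), and among the 873 lower genes with a promoter 25 did (2.86%). Outside the interferon and MHC class I lists the share of higher genes was 7.52%. In the antiviral list 16 of 27 promoters held the motif and in the GTPase list 9 of 10, against 2 of 24 for the projection neuron list. A match describes the sequence and does not show that a factor binds there. The promoters printed here are those of the called members with the smallest P that hold the motif, 2 from the antiviral list, 2 from the GTPase list and 1 from the MHC class I list, read 5′ to 3′ on the strand of the gene with the match in capitals.
Ifih1 (chr2:62646206-62646505, reverse strand): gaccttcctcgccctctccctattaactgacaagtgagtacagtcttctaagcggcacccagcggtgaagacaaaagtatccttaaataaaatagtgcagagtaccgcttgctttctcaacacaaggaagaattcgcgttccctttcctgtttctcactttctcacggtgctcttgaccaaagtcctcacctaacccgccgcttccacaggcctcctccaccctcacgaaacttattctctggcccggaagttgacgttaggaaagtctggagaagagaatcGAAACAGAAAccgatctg
Trim30a (chr7:104465144-104465443, reverse strand): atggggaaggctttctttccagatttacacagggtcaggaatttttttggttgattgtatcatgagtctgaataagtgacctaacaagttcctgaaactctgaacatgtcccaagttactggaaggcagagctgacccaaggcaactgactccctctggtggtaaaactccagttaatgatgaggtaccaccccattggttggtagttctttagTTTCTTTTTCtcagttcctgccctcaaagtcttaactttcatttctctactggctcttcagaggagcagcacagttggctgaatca
Igtp (chr11:58199306-58199605, forward strand): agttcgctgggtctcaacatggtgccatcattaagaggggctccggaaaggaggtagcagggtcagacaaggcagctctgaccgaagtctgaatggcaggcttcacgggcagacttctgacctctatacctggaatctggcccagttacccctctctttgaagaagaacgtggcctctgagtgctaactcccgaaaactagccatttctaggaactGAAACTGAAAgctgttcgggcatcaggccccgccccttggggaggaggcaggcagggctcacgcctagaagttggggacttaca
Irgm2 (chr11:58214727-58215026, forward strand): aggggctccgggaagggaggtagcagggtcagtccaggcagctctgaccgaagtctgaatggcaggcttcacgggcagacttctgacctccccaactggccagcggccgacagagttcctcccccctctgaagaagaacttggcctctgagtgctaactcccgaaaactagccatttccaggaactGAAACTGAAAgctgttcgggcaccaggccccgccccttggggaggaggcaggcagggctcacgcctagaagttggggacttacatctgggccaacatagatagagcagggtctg
B2m (chr2:122147437-122147736, forward strand): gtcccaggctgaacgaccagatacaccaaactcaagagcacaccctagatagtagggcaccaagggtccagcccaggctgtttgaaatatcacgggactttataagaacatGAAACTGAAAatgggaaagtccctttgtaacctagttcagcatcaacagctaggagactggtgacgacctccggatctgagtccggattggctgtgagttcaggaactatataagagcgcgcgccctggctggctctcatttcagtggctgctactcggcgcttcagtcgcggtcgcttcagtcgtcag
The match in Igtp lay 34 bases before the start and that in Irgm2, its neighbour on chromosome 11, 64 bases before. In Trim30a the match was on the opposite strand.

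**Figure D4:**
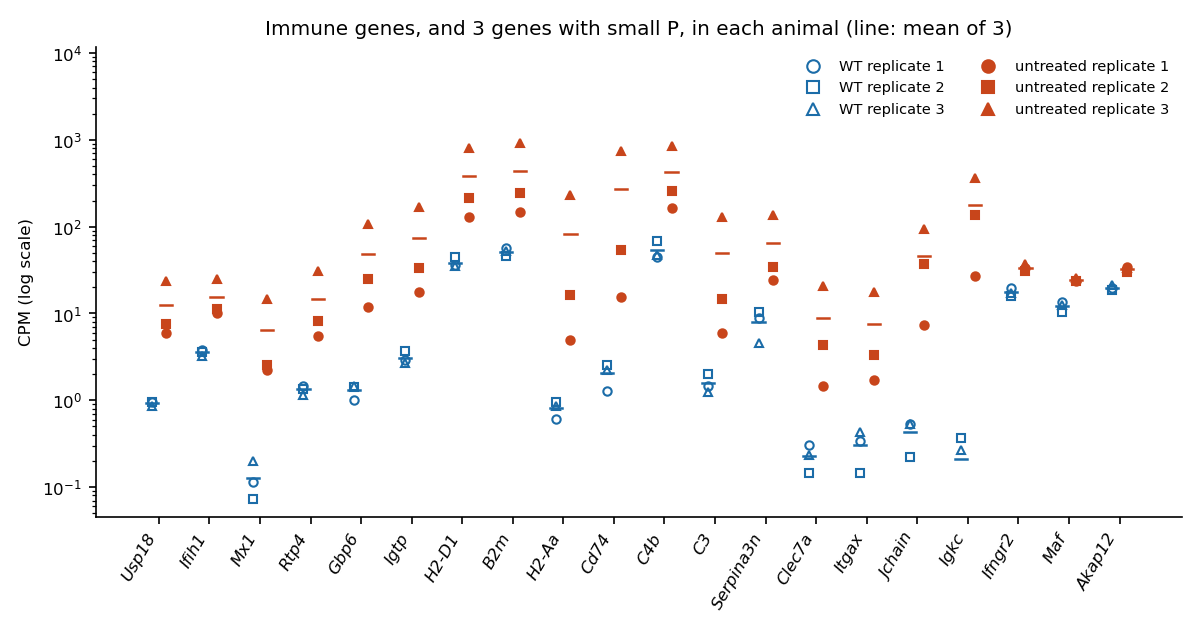
CPM on a log axis of 17 immune genes and of Ifngr2, Maf and Akap12 in the 3 WT mice (open blue) and the 3 untreated mice (filled red), with the mean of each group as a line; values of 0 are not drawn. In the first 17 genes untreated replicate 3 was the highest animal, and in the last 3 the untreated animals lay close together.

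Antigen presentation rose in both its branches. Of 22 MHC class I and peptide loading genes 14 were higher and 0 lower (median 2.53), and of 11 MHC class II genes 5 were higher and 0 lower (median 1.92). B2m, the invariant chain of MHC class I, was counted at 56.8, 45.4 and 51.8 CPM in WT and 148, 246 and 915 CPM in untreated mice (log2 fold change 3.09, SE 0.65, adjusted p = 0.0204). H2-D1, a classical class I heavy chain, was counted at 36.2, 44.2 and 34.9 CPM in WT and 129.5, 214 and 815 CPM in untreated mice (log2 fold change 3.33, adjusted p = 0.0156). H2-Q4 (3.96), H2-Q6 (5.08) and H2-Q7 (5.31) rose on the log2 scale, but these paralogs are near-identical and the counting may divide their reads. Cd74, the class II invariant chain, was counted at 1.28, 2.57 and 2.26 CPM in WT and 15.6, 54.1 and 747 CPM in untreated mice (log2 fold change 7.05, SE 1.59, adjusted p = 0.0253). H2-Aa was counted at 0.604, 0.954 and 0.864 CPM in WT and 4.95, 16.4 and 229 CPM in untreated mice (log2 fold change 6.68, adjusted p = 0.0307). Without WT replicate 2, 0 of 22 class I and 0 of 11 class II genes were called. Without WT replicate 3 these were 1 and 0, without WT replicate 1 they were 10 and 0, and without untreated replicate 3 they were 9 and 3.

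Complement and chemokine genes rose in part of their lists. Of 18 complement genes 6 were higher and 1 lower (median 1.71). C4b was counted at 45.1, 68.8 and 47.8 CPM in WT and 163, 258 and 846 CPM in untreated mice (log2 fold change 2.97, SE 0.61, adjusted p = 0.0191). C3 was counted at 1.47, 1.98 and 1.23 CPM in WT and 5.96, 14.5 and 129.5 CPM in untreated mice (log2 fold change 5.00, adjusted p = 0.0251). The gene that fell was Cd59a, an inhibitor of the membrane attack complex, at 6.76, 17.9 and 16.3 CPM in WT and 6.03, 5.81 and 5.67 CPM in untreated mice (adjusted p = 0.0399). WT replicate 1 lay near the untreated animals in Cd59a, as it did in the choroid plexus markers. With WT replicate 2 or 3 left out 0 of the 18 genes were higher, with WT replicate 1 or untreated replicate 3 left out 2 were, and with untreated replicate 1 left out 11 were.

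Of 24 chemokine genes 8 were higher and 1 lower (median 3.15), with 5 more listed genes below the filter. The T cell chemoattractants Cxcl9 and Cxcl10 and the B cell chemoattractant Cxcl13 were among the 10 largest rises of protein-coding genes with a mean of at least 1 CPM in either group and no overlap between groups. Cxcl10 was counted at 0.0756, 0.147 and 0 CPM in WT and 3.23, 4.30 and 32.3 CPM in untreated mice (adjusted p = 0.0198). Cxcl9 had at most 2 counts in a WT library and stood at 1.30, 4.06 and 30.0 CPM in untreated mice (adjusted p = 0.0251), and Cxcl13 had at most 2 counts and stood at 1.26, 5.21 and 19.5 CPM (adjusted p = 0.0168). Ccl5, made by cytotoxic lymphocytes, stood at 0.189, 0.147 and 0 CPM in WT and 1.51, 4.33 and 32.0 CPM in untreated mice (adjusted p = 0.0235). Cx3cl1, the neuronal ligand of the microglial receptor Cx3cr1, was the gene that fell, at 795, 878 and 784 CPM in WT and 668, 571 and 576 CPM in untreated mice (log2 fold change −0.44, adjusted p = 0.0183). With WT replicate 2 or 3 left out 0 of the 24 chemokine genes were higher, and with WT replicate 1 or untreated replicate 3 left out 4 were. Of 11 leukocyte adhesion genes Itga4 rose (1.59, adjusted p = 0.0455) and 0 fell.

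T cell transcripts rose in part of their list. Of 31 tested T and cytotoxic lymphocyte genes 11 were higher and 1 lower (median 3.58). In 23 each untreated animal stood above each WT animal, against 15.0% of all tested genes. The list medians of the untreated animals were 1.54, 2.201 and 4.57. Cd8a, the coreceptor of cytotoxic T cells, was counted at 0, 0 and 0.133 CPM in WT, or at most 4 counts, and 1.16, 2.75 and 19.1 CPM in untreated mice (adjusted p = 0.0209). Cd3g, a chain of the T cell receptor complex, had 0 counts in every WT library and stood at 0.386, 1.14 and 11.3 CPM in untreated mice (adjusted p = 0.0335), at least 39.7-fold higher against a floor of 3 counts per library. Cd3e had at most 2 counts in a WT library and stood at 0.351, 0.537 and 9.003 CPM (adjusted p = 0.036). The listed gene that fell was Cd4, which encodes the coreceptor of helper T cells. It was counted at 62.6, 79.8 and 73.5 CPM in WT and 18.2, 21.8 and 14.5 CPM in untreated mice (log2 fold change −1.99, SE 0.15, adjusted p = 0.000239). In the same WT libraries Cd3g had 0 counts, and Cd3e and Cd8a had at most 2 and 4. Which cells held the Cd4 transcript was not tested, and its fall is not read here as one of helper T cells. Without WT replicate 2 the list had 0 higher genes, without WT replicate 3 it had 2, without WT replicate 1 it had 7, without untreated replicate 3 it had 4 and without untreated replicate 1 it had 17, while Cd4 was lower in each of these settings.

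Of 21 tested B and plasma cell genes 12 were higher and 1 lower (median 3.02). Counts of all 264 immunoglobulin genes summed to 43.0, 26.2 and 13.8 CPM in WT and to 165, 581 and 1403 CPM in untreated mice, while those of 226 T cell receptor genes summed to 10.9, 4.04 and 3.16 CPM in WT and 15.3, 13.9 and 42.1 CPM in untreated mice. Of the tested immunoglobulin constant genes 10 of 10 were higher, and of the variable genes 18 of 75. Jchain, which joins secreted IgM and IgA, was counted at 0.529, 0.220 and 0.532 CPM in WT and 7.40, 37.5 and 94.4 CPM in untreated mice (log2 fold change 6.74, SE 0.99, adjusted p = 0.00438). Igkc, the kappa constant region, was counted at 0, 0.367 and 0.266 CPM in WT and 27.2, 137 and 364 CPM in untreated mice (adjusted p = 0.00193). Pou2af1, a B cell coactivator, had at most 1 count in a WT library and stood at 0.246, 1.44 and 3.94 CPM in untreated mice (adjusted p = 0.0126). Ms4a1, a surface marker of B cells, did not pass the filter on low counts. Xbp1, a factor of secretory cells that other brain cells also express, was the gene that fell, named after its value was seen. With untreated replicate 1 as the only untreated animal the median was 1.78, and without 1 animal between 7 and 13 of the 21 were higher.

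Microglial markers stood higher in part. Of 26 genes of disease-associated microglia 7 were higher and 0 lower (median 0.77), and of 18 homeostatic markers 0 were called (median 0.49). Clec7a, a receptor for fungal glucans, was counted at 0.302, 0.147 and 0.233 CPM in WT and 1.47, 4.30 and 20.9 CPM in untreated mice (log2 fold change 5.26, SE 1.02, adjusted p = 0.015). Itgax, the integrin CD11c, was counted at 0.340, 0.147 and 0.432 CPM in WT and 1.72, 3.32 and 17.5 CPM in untreated mice (log2 fold change 4.59, adjusted p = 0.0176). P2ry12, the purinergic receptor of resting microglia, was counted at 29.8, 16.1 and 31.0 CPM in WT and 30.9, 31.3 and 41.5 CPM in untreated mice and did not pass (adjusted p = 0.234). Of 12 perivascular macrophage and monocyte genes Ly6c2, a monocyte surface antigen, rose (4.38, adjusted p = 0.0228) and Cd163, a scavenger receptor of perivascular macrophages, fell, at 4.65, 4.77 and 6.22 CPM in WT and 2.77, 2.79 and 3.13 CPM in untreated mice (adjusted p = 0.0201). Without untreated replicate 3, 5 of the 26 disease-associated genes were higher, without WT replicate 2 it was 0, without WT replicate 3 it was 2 and without untreated replicate 1 it was 10.

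Of 18 general astrocyte markers 1 was lower and 0 were higher, with a median of −0.04. The gene that fell was Slc4a4, a bicarbonate transporter, at 218, 193 and 257 CPM in WT and 132, 159.7 and 133 CPM in untreated mice (log2 fold change −0.65, adjusted p = 0.00939). Of 24 reactive astrocyte genes 5 were higher and 1 lower (median 1.03), with animal medians of 0.19, 0.44 and 1.69. Gfap was counted at 143, 180.1 and 86.2 CPM in WT and 231, 264 and 575 CPM in untreated mice, with each untreated animal above each WT animal, and did not pass the adjusted test (log2 fold change 1.39, SE 0.40, adjusted p = 0.0546). Serpina3n, an acute phase protease inhibitor, was counted at 8.95, 10.3 and 4.62 CPM in WT and 24.3, 34.2 and 135 CPM in untreated mice (log2 fold change 3.02, adjusted p = 0.0227). Vim, in WT at 31.3, 38.8 and 34.0 CPM, stood at 40.6, 45.5 and 165 CPM in untreated mice (adjusted p = 0.115). In this list H2-D1, Cxcl10 and Psmb8 are also interferon-induced. Without WT replicate 2 the list had 0 higher genes, without WT replicate 3 it had 1 and without untreated replicate 1 it had 8.

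Some oligodendrocyte and vessel markers were called, against 4.58% of all tested genes higher and 6.10% lower. Of 18 mature oligodendrocyte genes 2 were lower and 1 higher (median −0.12). Opalin rose (0.82, adjusted p = 0.0368) and Mal fell (−0.51, adjusted p = 0.035). Of 12 oligodendrocyte precursor genes 2 were lower, Vcan (−0.46) and Gpr17 (−0.55). Of 17 endothelial genes 3 were higher and 0 lower (median 0.38). Cldn5, the tight junction claudin of brain endothelium, was counted at 18.1, 17.0 and 22.4 CPM in WT and 31.2, 31.1 and 37.2 CPM in untreated mice (log2 fold change 0.79, adjusted p = 0.00708). Rgs5 was the 1 gene of 17 in the pericyte and fibroblast list that rose (0.44, adjusted p = 0.0307). Leaving out 1 animal changed these calls: 1 endothelial gene was higher without WT replicate 1 or 2 or untreated replicate 2 or 3, and 5 were higher without WT replicate 3. Of the mature oligodendrocyte genes 0 were called without WT replicate 2 or untreated replicate 2, and of the precursor genes 0 without untreated replicate 1 or 2. The pericyte and fibroblast list had 0 higher genes without WT replicate 1 or 2 or untreated replicate 2 or 3. Of 12 ependymal and 7 red blood cell genes 0 were called.

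The largest falls among called protein-coding genes with a mean of at least 1 CPM in either group and no overlap between groups were of mixed kinds. Gpx6, a glutathione peroxidase, had the lowest log2 fold change of these, −4.31, with 4.19, 5.98 and 6.98 CPM in WT and 0.0702, 0.537 and 0.238 CPM in untreated mice (adjusted p = 0.00137). Gbx1, a homeobox transcription factor, was counted at 1.89, 2.50 and 2.59 CPM in WT and 0.386, 0.470 and 0.272 CPM in untreated mice (log2 fold change −2.62, SE 0.30, adjusted p = 0.00123). Impg1 was counted at 4.53, 7.05 and 6.81 CPM in WT and 1.40, 0.974 and 0.917 CPM in untreated mice (log2 fold change −2.48, adjusted p = 0.00104). Ankk1, which lies next to Drd2 on chromosome 9, was counted at 5.06, 10.1 and 5.35 CPM in WT and 1.37, 0.974 and 1.32 CPM in untreated mice (log2 fold change −2.48, adjusted p = 0.0027). In each of these 4 genes every untreated animal lay below every WT animal.

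Some others of the 10 largest falls varied among WT animals in the order of the choroid plexus markers, as Impg1 and Ankk1 above also did. The same order stood in some neuronal genes given above, such as Ppp1r1b, Drd2 and Chat, and not in others, such as Pde10a and Drd1. Ace, the angiotensin-converting enzyme, was counted at 26.4, 126 and 57.8 CPM in WT and 11.5, 13.6 and 12.9 CPM in untreated mice (log2 fold change −2.46, SE 0.57, adjusted p = 0.0279). Clic6 was counted at 14.3, 91.4 and 46.9 CPM in WT and 11.0, 8.50 and 7.41 CPM in untreated mice (log2 fold change −2.50, adjusted p = 0.0387), and it was the 1 gene called of the 22 choroid plexus genes. Slc4a11 was counted at 6.42, 17.8 and 13.2 CPM in WT and 1.68, 1.44 and 2.07 CPM in untreated mice (log2 fold change −2.84, adjusted p = 0.00206), and Plekhg4 at 16.3, 40.2 and 21.2 and 4.35, 3.39 and 5.64 CPM (log2 fold change −2.54, adjusted p = 0.00215). In these 4 genes WT replicate 2 was the highest animal and WT replicate 1 the lowest of the WT animals. The transthyretin gene Ttr, an abundant choroid plexus transcript, was counted at 45.3, 3458 and 1076 CPM in WT and 159.5, 33.0 and 21.2 CPM in untreated mice and did not pass (adjusted p = 0.115). By the DEG rule 21 of the 22 choroid plexus genes were lower, but 2 without WT replicate 2, 6 without untreated replicate 2, 7 without untreated replicate 3 and 13 without untreated replicate 1. Without WT replicate 1 all 22 were lower DEGs and 15 had an adjusted p under 0.05, whereas 0 did without any other animal. With the cortical marker level as a covariate 0 were DEGs and the median turned from −3.41 to 0.57.

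Among called protein-coding genes with at least 1 CPM and no overlap, the rises with the smallest P were moderate and even across animals. Immunoglobulin genes were outside this set. Of these, Ighg2b had 0 counts in WT and stood at 14.6, 40.4 and 48.4 CPM in untreated mice (adjusted p = 0.00185). Akap12, a scaffold for protein kinase A, was counted at 19.6, 18.6 and 21.1 CPM in WT and 34.3, 30.4 and 33.3 CPM in untreated mice (log2 fold change 0.72, SE 0.09, adjusted p = 0.00167). Maf, a basic leucine zipper factor, was counted at 13.4, 10.5 and 12.5 CPM in WT and 24.0, 23.4 and 25.7 CPM in untreated mice (log2 fold change 1.01, adjusted p = 0.00185). Ifngr2, a chain of the interferon-gamma receptor, was counted at 19.4, 15.9 and 17.3 CPM in WT and 33.7, 30.6 and 36.8 CPM in untreated mice (log2 fold change 0.94, adjusted p = 0.00193). Unlike the interferon-induced genes, these 3 genes were about as high in untreated replicate 1 as in replicate 3. Id2, an inhibitor of basic helix-loop-helix factors, was counted at 52.0, 36.4 and 44.9 CPM in WT and 81.6, 77.7 and 89.8 CPM in untreated mice (log2 fold change 0.90, adjusted p = 0.00249). Wt1, a developmental zinc finger gene, had 0 counts in every WT library and stood at 1.47, 1.71 and 0.408 CPM in untreated mice (adjusted p = 0.00539), at least 11.12-fold higher against a floor of 3 counts per library.

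Calls in housekeeping and stress lists stand against 4.58% of all tested genes higher and 6.10% lower. Of 30 cytosolic ribosomal protein genes 0 were called (median −0.04), and of 12 mismatch repair and CAG repeat handling genes 0 (median 0.14). Of 30 nuclear-encoded respiratory chain genes 3 were lower, with the largest log2 fold change in Ndufb10 (−0.38, adjusted p = 0.0116), and 0 were higher. Of 28 heat shock and chaperone genes 4 were lower and 1 higher, and with untreated replicate 2 or 3 left out 0 were lower. Hspa5, the endoplasmic reticulum chaperone BiP, was counted at 321, 493 and 357 CPM in WT and 227, 163 and 227 CPM in untreated mice (log2 fold change −0.92, adjusted p = 0.0305). Of 24 cholesterol genes Cyp46a1, which turns cholesterol into its exported form in neurons, fell, at 253, 307 and 266 CPM in WT and 182, 186 and 182 CPM in untreated mice (log2 fold change −0.59, SE 0.08, adjusted p = 0.00291). Of 28 glutathione and oxidative stress genes 3 were lower and 0 higher, among them Txnrd1 (−0.38, adjusted p = 0.00931) and Sod1 (−0.35, adjusted p = 0.0294). Of 45 developmental genes under Polycomb silencing 8 passed the filter and 1 was higher, Onecut1 (adjusted p = 0.0341). Of 21 clustered protocadherins 4 were higher and 0 lower, Pcdhb3, Pcdhb5, Pcdhb9 and Pcdhb19, all on chromosome 18.

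**Figure D5:**
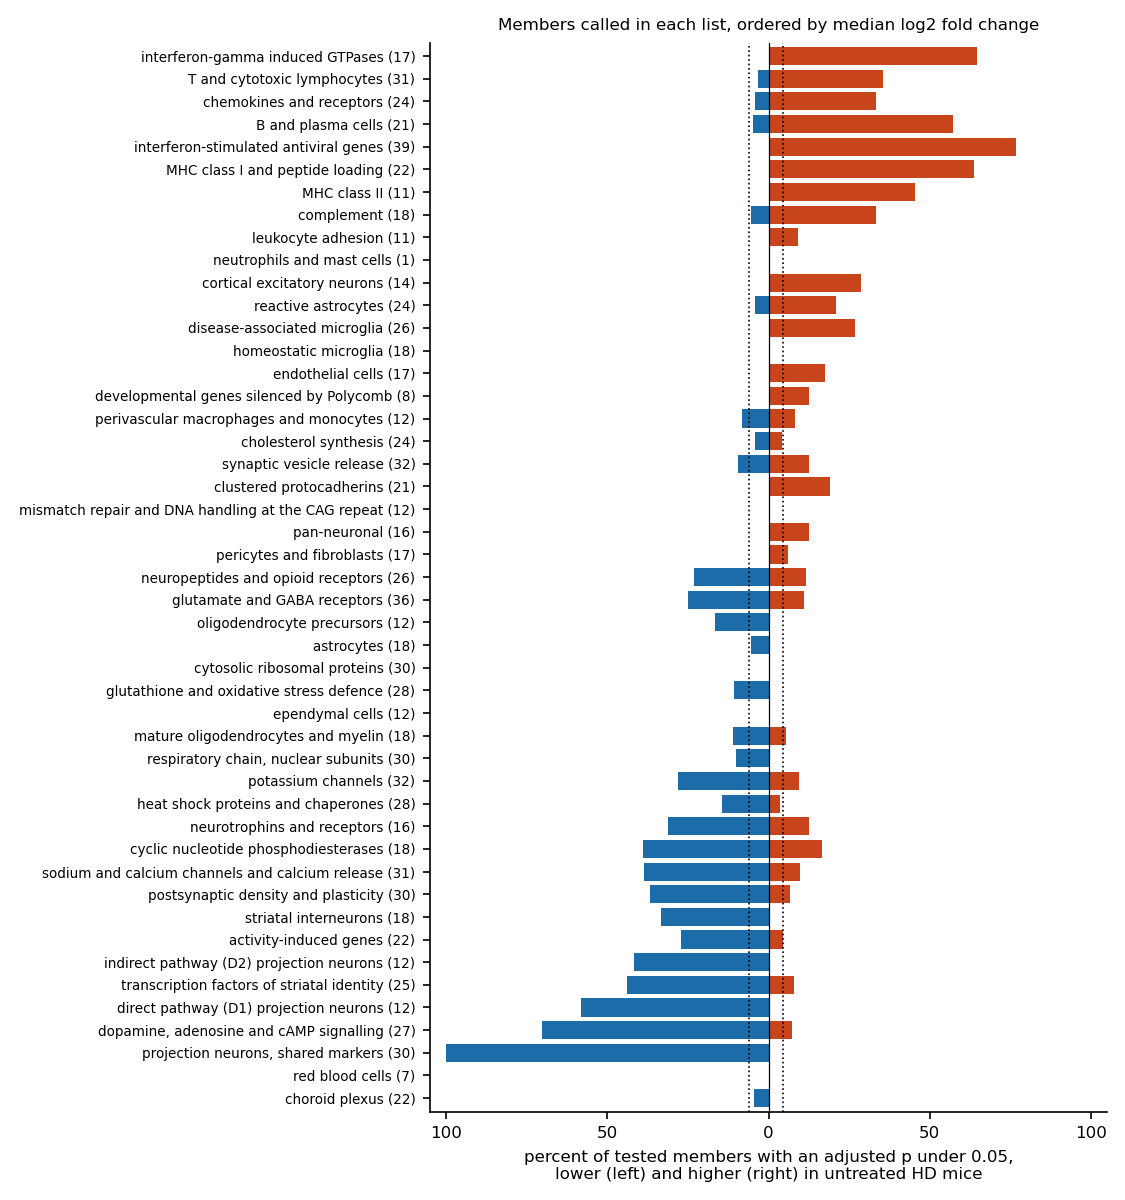
Percent of the tested members of each of 47 lists that were lower (blue, left) or higher (red, right) in untreated mice at an adjusted p under 0.05, ordered by median log2 fold change, with dotted lines at the shares over all tested genes, 6.10% lower and 4.58% higher. The projection neuron list reached 30 of 30 lower and the antiviral list 30 of 39 higher.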

How the data were processed

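Striatal RNA of 9 mice, 3 per group, was sequenced from the 3′ end with an oligo-dT primer. The authors deposited raw counts per Ensembl gene, whole numbers without normalization, for 55357 genes. The methods name STAR as aligner, whereas the submitters' processing notes list Trimmomatic 0.39, FastQC 0.11.9, HISAT2 2.2.1 and featureCounts 2.0.1 without roles. The build behind the mouse counts is not given in the sources used here, so only chromosomes are printed for genes. Use of molecular identifiers is not stated. Symbols, chromosomes and gene types came from GENCODE M21, which matched 94.1% of the IDs holding 99.8% of the counts. A value of 1 in every library was held by 378 genes.

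The counts were tested with edgeR 4.0.16 under R 4.3.3. Genes were filtered by filterByExpr with the group, scaled by TMM and fitted over all 9 mouse libraries with glmQLFit, which left 6 residual degrees of freedom, and the contrast untreated minus WT was tested with glmQLFTest. Adjusted p-values are Benjamini-Hochberg values over all 19463 genes tested. The standard error (SE) of a fold change was taken as its log2 value over √F. Log2 CPM used a prior count of 2. Each library is 1 animal. Where every WT library held 0 counts, the fold was set against a floor of 3 counts per library, which covers counting error only. Per-animal list values are medians over members of log2 CPM minus the WT mean. Total counts were 27184356 to 31112342 in WT and 28628414 to 29311041 in untreated mice.

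The 47 gene lists, 21 for cell types and 26 for functions, were chosen with earlier results of these data known, and no list was tested as a set. Named genes were Htt and Y-linked genes; the 10 largest rises and falls and the 5 with the smallest P in each direction among called protein-coding genes with at least 1 CPM and no overlap; up to 4 called members with the smallest P of each list, or the 2 most abundant where none was called; and the first 2 members of each cell type list. Listed genes removed by the filter are counted as below the filter. Some genes named by this rule are not reported here. On counts simulated for this comparison, with 200 of 19117 genes changed, the fit recovered 56.0% of genes changed 2-fold and 83.8% of those changed 4-fold, with 9.15% false among the genes called. Alternatives were library size scaling, DESeq2 1.42.0, other filters, a fit of the 2 groups alone, the replicate number as a block, the Y-linked share as a covariate, sex chromosome genes left out, other thresholds and each animal left out. The omission of both untreated animals without Y-linked counts and the covariates for cortical and choroid plexus markers were added after the data were seen. That omission left only untreated replicate 1 beside the WT and treated mice. For it only fold changes and medians are given. Promoter sequences came from RefSeq in build GRCm38.p6. Plots were made in Python 3.11.15 (matplotlib 3.10.9).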

Additional observations from a re-analysis of the deposited data

How the results depend on the processing

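The number of genes higher and lower at an adjusted p under 0.05, 892 and 1188, was between 213 and 1184 and between 691 and 1400 with 1 animal left out. It was 1773 and 1700 with DESeq2 and 326 and 770 without a filter on low counts. It was 189 and 537 with a fit of the 2 groups alone, and 90 and 367 with the Y-linked share as a covariate. Of settings added after the data were seen, the 4 libraries with Y-linked counts gave 18 and 134, the cortical marker covariate 6 and 21, and the choroid plexus covariate 36 and 318. A threshold of 0.01 gave 59 and 402, and a 2-fold minimum beside 0.05 gave 442 and 291. DEGs, 1085 higher and 503 lower, numbered between 734 and 1372 and between 374 and 682 with 1 animal left out. There were 581 and 352 with at least 10 counts in every library, 1480 and 692 without a filter, 580 and 607 with the Y-linked covariate, and 582 and 617 in the libraries with Y-linked counts. The cortical covariate gave 574 and 215 DEGs, the choroid plexus covariate 734 and 277, and a P under 0.01 606 and 340. The causes of these shifts were not tested.

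The log2 fold change of Htt lay between −0.39 and −0.35 with 1 animal left out. Its adjusted p rose above 0.05 with the Y-linked covariate (−0.38, adjusted p = 0.0591), the cortical covariate (−0.40, adjusted p = 0.274) and the choroid plexus covariate (−0.36, adjusted p = 0.0554). With untreated replicate 1 as the only untreated animal its log2 fold change was −0.37, and no adjusted p is given for that setting. Of the 67 named genes that fell, 56 to 66 kept the call with 1 animal left out, and of the 55 that rose 11 to 45 did, 11 being the number without WT replicate 2. With the Y-linked covariate 46 of the falls and 10 of the rises kept it. With the cortical covariate 14 falls and 1 rise did, and with the choroid plexus covariate 48 falls and 7 rises did. Among the genes named here, signs changed with the cortical covariate in Slc17a7 (−0.19), Ttr (0.36) and Cd59a (0.054). In Rbfox3 the sign changed with the Y-linked covariate (0.019) and with untreated replicate 1 as the only untreated animal (0.066). With 1 animal left out Rbfox3 lay between −0.13 and 0.0029, the highest without WT replicate 2. Of these 4 genes Cd59a was called in the full fit. Over whole lists, the cortical covariate left 19 of 22 choroid plexus genes positive and 8 of the 14 cortical markers that make up the covariate negative. With the Y-linked covariate 25 of 30 projection neuron genes were lower, and 6 of 21 B and plasma cell genes were higher. In the T cell, disease-associated microglia and reactive astrocyte lists 0 genes were higher with it.

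The replicate numbers of the labels do not pair the animals: same-numbered WT and untreated animals had correlations of 0.06, −0.08 and −0.06 between their deviations, and not every animal correlated best with its own number. A replicate block gave 983 higher and 1035 lower genes and 1061 and 463 DEGs, within 1.5 times of the fit without it. How far depth limits the calls of low-count genes was not tested.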
